A study of Mus musculus with 10 samples.

Results

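The genes described here encode 9 kinases and adapters that act directly below the T-cell receptor: Lck, Fyn, Zap70, Lat, Lcp2, Grap2, Fyb, Skap1 and Vav1. They were chosen by name. Of the 9, 8 were listed for their place in the pathway, while Fyb was listed because its level had been seen to rise in steps with the loss of Usp7. The Fyb values are therefore given as a description with no test, and the tests concern the other 8 genes. All 9 were among the 19511 features, of 35375 in the count table, that passed the filter on low counts, and their counts ran from 5697 to 170813 per library.

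When a T-cell receptor binds its ligand, the Src-family kinases Lck and Fyn phosphorylate the CD3 and zeta chains, and the kinase Zap70 docks on them. Zap70 then phosphorylates the membrane scaffold Lat and the cytosolic adapter Lcp2, which are bridged by the adapter Grap2. From this complex the signal runs to calcium, Ras and NF-kappaB, through the exchange factor Vav1 to the actin cytoskeleton, and through the adapters Fyb (also called ADAP) and Skap1 to integrin adhesion. In the thymus, the same proteins carry the pre-T-cell receptor signal in early thymocytes and the signals of positive and negative selection in later ones.

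RNA was sequenced from whole thymus of C57BL/6J mice 3 days after birth, with 1 library per animal. The groups were 3 homozygous KO and 3 heterozygous KO animals, whose blood-forming (hematopoietic) cells lacked USP7 (also called HAUSP, a deubiquitinating enzyme) on both alleles or on a single allele, and 4 USP7 wild-type animals. The labels do not name the driver of the deletion, and the stroma of the thymus is not part of the hematopoietic system. The 4 wild-type titles take 2 forms, with 1 or 2 wt words, and the labels do not say what the difference means. The columns of the animals with 1 wt word, replicates 3 and 4, add the word het in the count table, and the group given by the title was kept. Total counts per library (M, 1000000 counts) were 92.3 to 122.4 M for the homozygous KO and 90.5 to 97.4 M for the heterozygous KO. They were 39.8 to 86.4 M for the wild type, so the wild-type levels rest on the fewest reads. The wild types with 2 wt words had 39.8 and 41 M and those with 1 wt word 86.4 and 81 M. Title form and depth therefore cannot be told apart. The level of Usp7 itself was 302.6, 421.6 and 408.1 CPM (counts in 1000000 counts of the library, after TMM scaling of library sizes) in the homozygous KO thymi, 472, 515.6 and 516.2 in the heterozygous ones, and 676.5, 670.3, 594.4 and 589.2 in wild type. The 3 groups did not overlap and descended in the order of the labels, as did 0.969% of all features tested. The homozygous KO mean was still 59.7% of that of wild type. These are counts for the whole gene, and which part of Usp7 the reads came from was not examined. By edgeR's quasi-likelihood test with Benjamini-Hochberg adjustment, the fall passed in homozygous KO against wild type (log2 fold change -0.745, adjusted p = 5.2e-04). The fall in heterozygous KO did not pass (-0.336, adjusted p = 0.609). The lower Usp7 values among the wild types, 594.4 and 589.2 CPM, belonged to the animals with 1 wt word. Xist was at 1913 to 2459 CPM in 1 of 3 homozygous KO, 0 of 3 heterozygous KO and 3 of 4 wild-type libraries, and at 1.12 CPM or less in the others, so sex was not balanced across the groups.

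The RNA levels of cell-type markers also moved with genotype. The summed level of 8 markers of double-positive thymocytes was 7982 to 8307 CPM in homozygous KO and 9678 to 11020 CPM in wild type. Of the 8, 2 were higher and 2 lower in homozygous KO. Rag1, a recombinase subunit, had the largest fall (log2 fold change -0.85, adjusted p = 1.5e-05), while the sum of the other 7 was 4653 to 4772 CPM in homozygous KO and 4022 to 4503 CPM in wild type. In homozygous KO against wild type, 5 of 6 markers of mature single-positive thymocytes were lower (154.8 to 220.6 against 283.9 to 410.7 CPM summed), as were 5 of 5 for B cells (6.34 to 8.92 against 29.9 to 47.5) and 5 of 5 for dendritic cells (3.8 to 5.64 against 30.6 to 45.6). Neutrophil markers were higher for 4 of 6 genes (38.8 to 230.9 against 6.05 to 18.1 CPM summed), as were fibroblast markers for 3 of 4 (9.81 to 30.4 against 4.15 to 12). Myeloid markers were lower for 3 of 6 genes (42.2 to 85 against 63.4 to 77.1 CPM summed) and those of natural killer and innate lymphoid cells for 2 of 4 (1.71 to 4.04 against 4.18 to 5.75). In the other lists, 1 of 5 double-negative thymocyte markers was higher and 2 lower, 1 of 6 thymic epithelial markers was higher and 1 lower, and 1 of 4 tested megakaryocyte markers and 1 of 1 tested mast cell marker were lower. For erythroid cells and endothelium the test called 0 markers. Of all features tested, 25.8% passed in homozygous KO against wild type (12.5% higher, 13.2% lower), the background for these counts. The B-cell markers Ms4a1 and Pax5 and the dendritic marker Siglech were at 0 in 1 homozygous KO library each, with means of 0.00615, 0.0235 and 0.00948 CPM in that group against 4.47, 1.26 and 2.21 CPM in wild type. In heterozygous KO, no marker of any list passed the test (edgeR's quasi-likelihood test, Benjamini-Hochberg adjusted p under 0.05), beside 0.0154% of all features. The part of these shifts in the values below was not tested. In whole tissue, fewer cells of a type and less RNA per cell cannot be told apart.

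The 5′ flanks of 4 of the start sites are printed because the results turn on Fyb, Lck and Lat, and because E-boxes, the 6-base motif CANNTG bound by the E-protein factors of thymocytes, were looked for in them. The sequences are RefSeq's, of build GRCm38.p6, and hold the 250 bases before a start, 5′ to 3′ on the strand of the gene, with each E-box in capitals. The table held a start for 8 of the 9 genes, Skap1 being the exception. Fyb lies on chromosome 15 (chr15:6579597-6579846, plus strand). Lck has a pair of promoters on chromosome 4, minus strand, of which the proximal (chr4:129558373-129558622) is known for its use in thymocytes and the distal (chr4:129573642-129573891) for its use in mature T cells. Lat lies on chromosome 7 (chr7:126369569-126369818, minus strand).
Fyb: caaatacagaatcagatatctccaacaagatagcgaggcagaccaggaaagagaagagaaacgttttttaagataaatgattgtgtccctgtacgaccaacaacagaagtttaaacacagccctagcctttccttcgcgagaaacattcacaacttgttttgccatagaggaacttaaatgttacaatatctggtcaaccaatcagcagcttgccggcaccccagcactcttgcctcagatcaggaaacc
Lck proximal: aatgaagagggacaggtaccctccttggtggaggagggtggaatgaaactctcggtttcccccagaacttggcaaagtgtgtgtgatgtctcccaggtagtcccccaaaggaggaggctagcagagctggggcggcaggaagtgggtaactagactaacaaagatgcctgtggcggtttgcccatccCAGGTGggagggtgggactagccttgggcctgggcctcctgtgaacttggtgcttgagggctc
Lck distal: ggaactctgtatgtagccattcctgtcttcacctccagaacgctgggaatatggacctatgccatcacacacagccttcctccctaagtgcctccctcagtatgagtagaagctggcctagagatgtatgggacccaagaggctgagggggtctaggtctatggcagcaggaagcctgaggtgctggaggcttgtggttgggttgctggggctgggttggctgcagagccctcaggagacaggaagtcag
Lat: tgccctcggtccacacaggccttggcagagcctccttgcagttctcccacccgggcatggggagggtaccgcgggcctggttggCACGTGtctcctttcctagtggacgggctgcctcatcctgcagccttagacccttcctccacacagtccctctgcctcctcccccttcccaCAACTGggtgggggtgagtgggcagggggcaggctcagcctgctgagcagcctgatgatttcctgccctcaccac
The Fyb flank held 0 E-boxes, as did the distal Lck flank, whereas the proximal Lck flank held 1 and the Lat flank 2. The first E-box letter lay at -63 from the start in proximal Lck and at -166 and -75 in Lat, counted with -1 as the last base before the start. Of all 32851 promoters of this length, 66.2% held at least 1 E-box, with a median of 1. The RUNX motif TGTGGT, searched on both strands, was present once in the distal Lck flank, once in the flank of the second of the 3 listed Zap70 starts, 0 times in the other listed flanks, and in 14% of all promoters. In the other members, Fyn held 0 E-boxes, Lcp2 held 1, and Grap2 and Vav1 held 2 each. Zap70 has 3 listed starts, with 3, 1 and 1.

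Fyb, the adapter that links the Lcp2 complex to integrin activation, was at 255.7, 240.4, 247.8 and 263.4 CPM in the wild-type libraries. It was at 370, 359.3 and 351 CPM in heterozygous KO and at 414.3, 471.3 and 450.5 CPM in homozygous KO. Every heterozygous library lay above every wild-type library and below every homozygous one, and the lowest homozygous value belonged to the library with the lowest Usp7. The level was 1.43-fold that of wild type in heterozygous KO (log2 fold change 0.52, SE 0.06, 95% CI 0.39 to 0.64) and 1.77-fold in homozygous KO (0.82, SE 0.06, 95% CI 0.70 to 0.94). Homozygous KO stood 1.24-fold above heterozygous KO (log2 fold change 0.31, SE 0.06). These steps are what the gene was chosen for. The SE and CI take no account of that choice and are no test of the rise. Over all features tested, 241 (1.24%) rose from wild type through heterozygous to homozygous KO with no overlap between the groups.

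**Figure D1:**
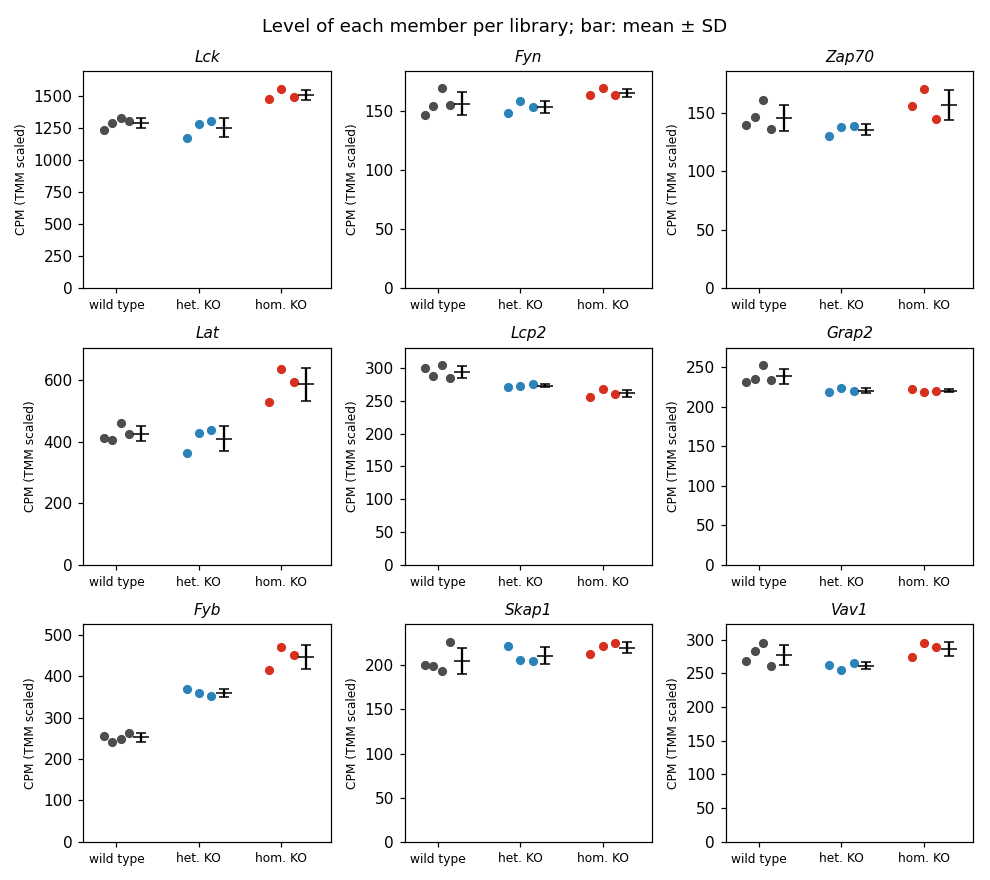
CPM (TMM scaled, linear axis from 0) of each of the 9 genes in every library, grouped as wild type (n = 4), heterozygous KO (n = 3) and homozygous KO (n = 3), with points for libraries and bars for mean ± SD. Fyb climbs in 2 steps (251.8, 360.1 and 445.3 CPM on average), Lck and Lat are higher in homozygous KO, and Lcp2 descends from 293.9 to 261 CPM.

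Across 18 alternatives, the log2 fold change was 0.73 to 0.87 in homozygous KO and 0.48 to 0.54 in heterozygous KO against wild type. The lowest homozygous value came from scaling by library totals alone and the lowest heterozygous value from scaling to Cd3d, Cd3e and Cd3g. The step from heterozygous to homozygous KO was 0.22 with library totals alone, 0.36 with Cd3 scaling and between these values in the other 13 of 15 alternatives. With the Xist level as a covariate the differences from wild type were 0.82 and 0.51. The titles carry a number after the word Hausp, which was read as an animal number. The numbers were cut here into blocks of 44 to 51 and 56 to 63, which the labels do not name. Within the animals numbered 44 to 51, homozygous KO (n = 1) stood 0.74 and heterozygous KO (n = 1) 0.58 above wild type (n = 3) on the log2 scale. Within those numbered 56 to 63, the differences were 0.81 (n = 2) and 0.43 (n = 2) against 1 wild type. The step between the KO groups was 0.16 in the first of these blocks (1 library each) and 0.38 in the second (2 each).

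Set against its own partners, Fyb stood higher in each KO group. The ratio of Fyb counts to those of Skap1, the adapter it binds, was 1.17 to 1.28 in wild type, 1.67 to 1.75 in heterozygous KO and 1.95 to 2.12 in homozygous KO. Its ratio to Lcp2, the adapter that recruits it, was 0.816 to 0.926, 1.28 to 1.37 and 1.62 to 1.76 in the same order. Neither ratio overlapped between any pair of groups. Both ratios contain Fyb and are a description, and they were set up after its rise was known. The annotated length of a gene is the same in every library, and these levels and ratios were not corrected for it. Whether the groups used transcripts of different length was not tested.

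**Figure D2:**
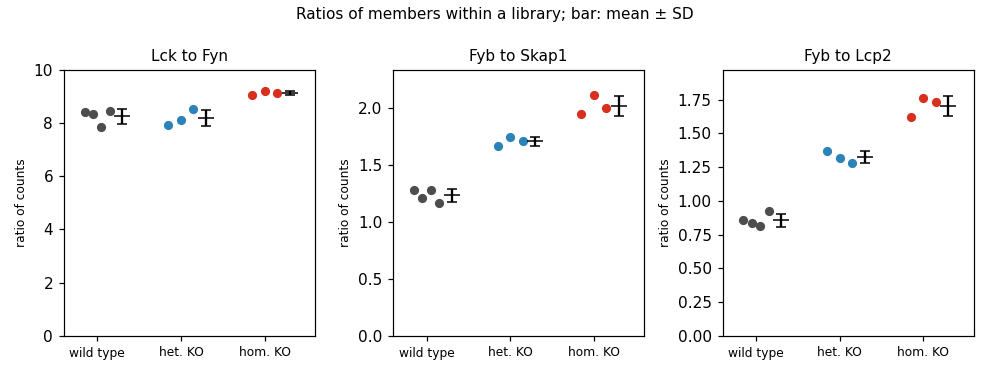
Ratio of read counts (linear axis from 0) of Lck to Fyn, Fyb to Skap1 and Fyb to Lcp2 within each library, by group, with bars for mean ± SD (n = 4 wild type, 3 heterozygous KO, 3 homozygous KO). The Lck to Fyn ratio is 9.06 to 9.19 in homozygous KO and 7.84 to 8.52 elsewhere, and both Fyb ratios separate all 3 groups.

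Among the 8 tested genes, 3 passed the test in homozygous KO against wild type, with Lat and Lck higher and Lcp2 lower. Of all features tested, 25.8% passed (12.5% higher, 13.2% lower), so 3 of 8 was not far from the background. At an unadjusted p under 0.05 the count was 4 of 8, beside 7304 of all 19511 features. The median log2 fold change of the 8 was 0.09, beside -0.01 over all features. The groups did not overlap for 4 of the 8 (32.7% of all features, 16.3% higher and 16.4% lower).

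Lck, the kinase that starts the cascade and is carried by the CD4 and CD8 coreceptors, was at 1482, 1555 and 1494 CPM in homozygous KO. It was at 1173, 1287 and 1307 CPM in heterozygous KO and 1234, 1288, 1327 and 1307 CPM in wild type. The homozygous libraries lay above all others, while the other groups were interleaved. Lck rose 1.17-fold against wild type (log2 fold change 0.23, SE 0.06, adjusted p = 0.0115) and 1.2-fold against heterozygous KO (0.27, SE 0.06, adjusted p = 0.0104; edgeR's quasi-likelihood test with Benjamini-Hochberg adjustment, here and below). Against wild type the call was lost with library totals alone (0.13, adjusted p = 0.0882) and with only the wild types that have 1 wt word (0.20, adjusted p = 0.108). Against heterozygous KO it was also lost with library totals alone (0.18, adjusted p = 0.0539). The difference from wild type was 0.21 within the animals numbered 44 to 51 and 0.22 within those numbered 56 to 63.

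Fyn, the other Src-family kinase of the proximal cascade, was at 163.6, 169.2 and 163.2 CPM in the homozygous KO thymi, 147.9, 158.3 and 153.4 in the heterozygous ones and 146.8, 154.3, 169.3 and 154.9 in wild type. The highest value of all was a wild type, and no comparison passed (adjusted p = 0.299 against wild type). The 95% CI of the log2 difference between homozygous KO and wild type was -0.04 to 0.20. Lck and Fyn were then compared with each other within each library, which needs no scaling. The ratio of Lck to Fyn counts was 9.06, 9.19 and 9.15 in the homozygous KO thymi, 7.93, 8.13 and 8.52 in the heterozygous ones and 8.4, 8.35, 7.84 and 8.44 in wild type. All 3 homozygous libraries exceeded the other 7. The mean log2 ratio was 0.15 higher than in wild type (two-sided exact permutation test, p = 0.0286, the smallest that 35 splits allow, 0.0858 after adjustment over the 3 comparisons). Against heterozygous KO it was 0.16 higher (exact p = 0.1, the smallest possible with 20 splits), and heterozygous KO differed from wild type by -0.01 (exact p = 0.743).

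Zap70, the kinase recruited to the phosphorylated receptor, was at 155.8, 170.5 and 144.6 CPM in the homozygous KO thymi, 130.2, 138 and 138.9 in the heterozygous ones and 139.9, 147.1, 161.5 and 136.1 in wild type. Homozygous KO and wild type overlapped (log2 fold change 0.10, 95% CI -0.05 to 0.26). Homozygous KO lay above heterozygous KO in every library, by 0.21 on the log2 scale (adjusted p = 0.0854). That difference passed only with scaling to Cd3d, Cd3e and Cd3g (0.27, adjusted p = 0.0115), among 15 alternatives.

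Lat, the membrane scaffold on which the signalling complex assembles, showed the largest change of the 8 tested genes. It was at 529.5, 635.2 and 593.8 CPM in the homozygous KO thymi, 364.4, 429 and 437.8 in the heterozygous ones and 413.2, 406.3, 461.8 and 424 in wild type. Homozygous KO was 1.37-fold above wild type (log2 fold change 0.46, SE 0.08, adjusted p = 0.00197) and 1.43-fold above heterozygous KO (0.51, SE 0.09, adjusted p = 0.00216). Both calls were kept in all alternatives, 18 and 15 in number, with adjusted p up to 0.0379 and 0.0133. Within the same blocks of animal numbers, Lat stood 0.31 and 0.53 above wild type. Heterozygous KO overlapped wild type (log2 fold change -0.06, 95% CI -0.23 to 0.12). Whether Lat and Fyb differed in the step at heterozygous loss was not tested.

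Lcp2, the adapter that Zap70 phosphorylates beside Lat, was at 256.1, 267.2 and 259.8 CPM in the homozygous KO thymi, 270.6, 272.5 and 274.9 in the heterozygous ones and 299, 288.2, 303.8 and 284.4 in wild type. The 3 groups did not overlap, in the order opposite to that of Fyb. Among all features tested, 189 (0.969%) descended in this way. The fall of Lcp2 from wild type to homozygous KO passed (log2 fold change -0.17, SE 0.04, adjusted p = 0.0145). In heterozygous KO it was -0.11 (adjusted p = 0.664), and between the KO groups -0.06 (adjusted p = 0.427), so neither single step passed. The first call was lost without homozygous KO replicate 3 (-0.16, adjusted p = 0.0549), with Cd3 scaling (-0.15, adjusted p = 0.0548) and with either form of wild type alone (adjusted p = 0.0934 and 0.0512). Within the blocks of animal numbers, the difference was -0.21 and -0.11. A protein-coding feature on the opposite strand, 4930469K13Rik, overlaps Lcp2 and had 205 to 502 counts per library.

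Grap2 (also called GADS), which bridges Lat and Lcp2, was at 221.7, 218.7 and 220.3 CPM in the homozygous KO thymi, 217.8, 223.8 and 219.1 in the heterozygous ones and 231.5, 235.3, 252.4 and 233.9 in wild type. All 6 KO libraries lay below the 4 wild-type libraries, and the KO groups overlapped (log2 difference 0.00, 95% CI -0.10 to 0.10). Neither difference from wild type passed (-0.11 in homozygous KO, adjusted p = 0.0845, and -0.11 in heterozygous KO, adjusted p = 0.664). With library totals alone the homozygous difference passed (-0.21, adjusted p = 0.00661).

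Skap1, the partner of Fyb in integrin activation, was at 212.7, 221.9 and 224.9 CPM in the homozygous KO thymi, 222.1, 205.7 and 205.1 in the heterozygous ones and 199.8, 199.4, 193.3 and 225.9 in wild type. Wild type replicate 4 was above all other libraries and made homozygous KO and wild type overlap, and heterozygous and homozygous KO overlapped as well. The log2 fold change of homozygous KO against wild type was 0.10 (95% CI -0.03 to 0.24, adjusted p = 0.237), and it passed only without that library (0.15, adjusted p = 0.048).

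Vav1, the exchange factor that couples the complex to Rac and actin, was at 274.3, 294.5 and 289.5 CPM in the homozygous KO thymi, 262.5, 255.3 and 266 in the heterozygous ones and 269, 283.4, 294.9 and 261.5 in wild type. Its difference between homozygous KO and wild type was the smallest of the 8 (log2 fold change 0.05, 95% CI -0.07 to 0.16). Between the KO groups the libraries did not overlap (0.13, adjusted p = 0.151), and the difference passed only with Cd3 scaling (0.19, adjusted p = 0.0428).

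**Figure D3:**
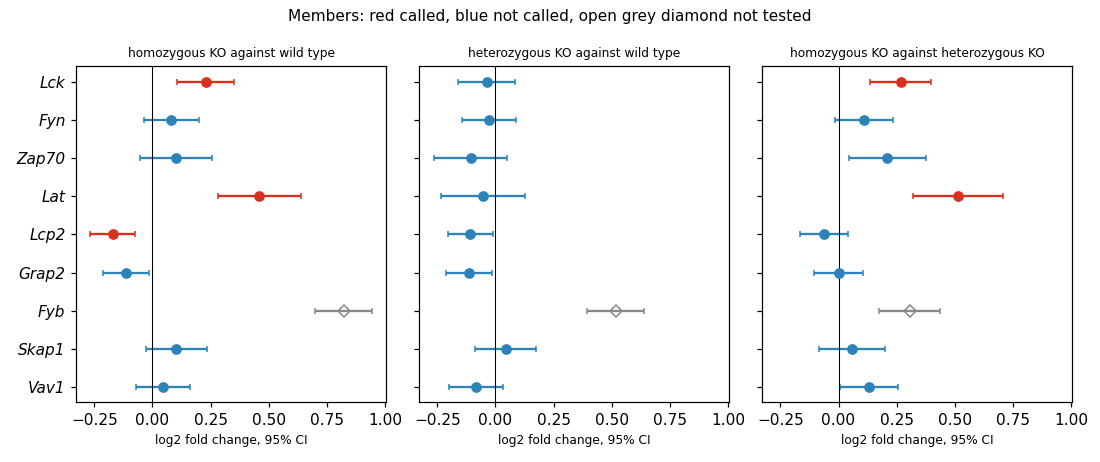
Log2 fold change (horizontal axis) with 95% CI of the 9 genes in each of the 3 comparisons (1 panel each), with red for genes that passed the test, blue for those that did not and an open grey diamond for Fyb, which was not tested. In the heterozygous panel the 8 tested genes lie between -0.11 and 0.04 and Fyb lies at 0.52. The CI of Fyb takes no account of its choice for these values.

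In heterozygous KO against wild type, 0 of the 8 tested genes passed edgeR's test, beside 0.0154% of all features (3 of 19511). DESeq2 and the other alternatives also gave 0. With edgeR, 2 of 8, Lcp2 and Grap2, had an unadjusted p under 0.05 (0.0302 and 0.0268), beside 1421 of all 19511 features. Lcp2 and Grap2 were also the 2 of 8 whose groups did not overlap (8.69% of all features, 4.41% higher and 4.27% lower). The median log2 fold change of the 8 was -0.07, beside -0.01 over all features, and Skap1 alone was above 0. In homozygous against heterozygous KO, 2 of 8 passed, Lck and Lat, both higher (17.1% of all features passed, 7.63% higher and 9.5% lower). There were 4 of 8 at an unadjusted p under 0.05, beside 5626 of all 19511 features. For 6 of 8 the groups did not overlap (33.3% of all features, 16.5% higher and 16.8% lower). The median was 0.12, beside 0.00 over all features. Any pair of the comparisons shares the libraries of a group, so their values are not independent. The heterozygous libraries are compared with wild type in one and are the reference for homozygous KO in another.

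Levels can be set against each other only per length of exon, here as CPM per kilobase of the exons that GENCODE lists for GRCm38. On that scale Lck was the most abundant of the 9 in wild type (440 ± 13.6 CPM per kilobase, SD, n = 4), followed by Lat (154.1 ± 8.95). Vav1 (75.2 ± 4.04) and Lcp2 (65.9 ± 2.04) came next, and Zap70 (48.9 ± 3.75) and Fyb (46.8 ± 1.84) overlapped each other. Grap2 (38.2 ± 1.53) and Fyn (35.8 ± 2.15) also overlapped, and Skap1 (27.4 ± 1.95) was the lowest. In heterozygous KO, Fyb (66.9 ± 1.78, n = 3) stood above Lcp2 (61.1 ± 0.482). In homozygous KO, Fyb (82.7 ± 5.36, n = 3) stood above Lcp2 (58.5 ± 1.27) and overlapped Vav1 (77.6 ± 2.85). Transcripts that count few of these exons would shift this order.

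Features that overlap Fyb could lend it reads, since the strand setting of the counting was not given. Gm2245, antisense to Fyb, was at 13.4 CPM in the homozygous KO thymi, 21.4 in the heterozygous ones and 14.5 in wild type, and Gm7666, a pseudogene on the same strand, was at 2.53, 2.03 and 1.71 CPM. Neither passed in homozygous KO against wild type (log2 fold change -0.11, adjusted p = 0.854, and 0.56, adjusted p = 0.128), and without wild type replicate 4 Gm7666 passed (0.77, adjusted p = 0.0398). Both levels are small beside the 251.8 to 445.3 CPM of Fyb, but they hold only the reads assigned to these features. How many of their reads were counted for Fyb was not tested. Of the annotated neighbours, Rictor, a subunit of the mTOR complex, was at 251.9 CPM in homozygous KO and 263.7 in wild type (log2 fold change -0.07, adjusted p = 0.486). Osmr, a receptor of oncostatin M, was higher in homozygous KO (2.12 against 0.607 CPM, log2 fold change 1.74, adjusted p = 0.0242), a call lost without homozygous KO replicate 3 (1.26, adjusted p = 0.112) and without wild type replicate 1, 2 or 3 (1.52 to 1.69, adjusted p = 0.0586 to 0.0651). C9, a complement component, had at most 1 count in any library, and Dab2 was not analysed here.

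The genes whose pattern was most like that of Fyb were found by Pearson's correlation of log2 CPM over the 10 libraries. The search covered 5870 genes with an average of at least 5 on that scale. It left out predicted genes with Gm numbers and Ensembl identifiers with no symbol. The most alike were Ncam1 (r = 0.975), Grsf1 (0.970), Rps19 (0.957), Lgals9 (0.955) and Rbm8a (0.945). Since the libraries fall into 3 groups, this likeness is mostly one of group means: after those means were removed, r was 0.492, 0.572, 0.320, 0.365 and 0.432. Ncam1, an adhesion molecule, had the steepest steps, at 26.5 ± 4.23 CPM in wild type, 48.7 ± 4.57 in heterozygous KO and 86.6 ± 4.82 in homozygous KO (SD, n = 4, 3 and 3). Rps19, a ribosomal protein, was at 330.9 ± 14.4, 382.9 ± 13.3 and 454.7 ± 12.5 CPM, and Lgals9, a galectin, at 262.7 ± 6.37, 298.8 ± 12.8 and 340.4 ± 15.6. The RNA-binding proteins Grsf1 (83.7, 95.1 and 102.9 CPM) and Rbm8a (71, 79.5 and 89.7 CPM) had shallower steps. These genes were picked for their likeness, so the steps are a description.

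The rest of the pathway was read from 5 lists. In homozygous KO against wild type, 3 of 13 genes of the receptor complex and coreceptors passed (1 higher, 2 lower), with a median log2 fold change of 0.00. The share of all features that passed, 25.8% (12.5% higher, 13.2% lower), is the background for each of the 5 counts. Cd8a, a coreceptor chain that carries Lck, rose from 1260 ± 99.3 to 1511 ± 57.4 CPM (log2 fold change 0.26, SE 0.07, adjusted p = 0.0148), a call lost with library totals alone (0.17, adjusted p = 0.0894) and with only the wild types that have 1 wt word (0.27, adjusted p = 0.091). Cd5, a receptor that dampens signalling, fell from 169.8 ± 21.3 to 90 ± 9.95 CPM (-0.92, SE 0.10, adjusted p = 8.0e-05). Cd28, the costimulatory receptor, fell from 235.9 ± 12 to 129.2 ± 14.1 CPM (-0.87, SE 0.07, adjusted p = 1.3e-05). The CD3 and zeta chain genes were among the 10 that did not pass.

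Of the negative regulators, 8 of 21 passed, 4 higher and 4 lower, with a median of -0.05. Sit1 (55.8 to 78.5 CPM, log2 fold change 0.49, adjusted p = 0.00951) and Sla2 (111.6 to 140.4 CPM, 0.33, adjusted p = 0.00559), adapters that limit receptor signalling, were higher. So was Ptpn22, a phosphatase that acts on Lck and Zap70 (98.3 to 119.5 CPM, 0.28, adjusted p = 0.00313). Ubash3b, a phosphatase that acts on Zap70 and Syk, had the largest fall, from 9.15 ± 1.75 to 2.66 ± 0.784 CPM (-1.78, SE 0.21, adjusted p = 1.5e-04). Cblb, a ubiquitin ligase that dampens activation, was lower (109.8 to 80.1 CPM, -0.45, adjusted p = 0.00186), as was Rasal3, a Ras GTPase-activating protein (321.6 to 256.5 CPM, -0.33, adjusted p = 0.00935). The calls of Sit1 and Sla2 were lost with only the wild types that have 1 wt word (adjusted p = 0.102 and 0.0782). The count of 8 was 5 to 10 in the 11 alternatives other than leaving out 1 library, lowest with those wild types.

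In the downstream branches, 13 of 31 genes passed, 6 higher and 7 lower, with a median of 0.02. Nfatc3, a transcription factor switched on by calcineurin, rose from 823.2 ± 34.1 to 1126 ± 49 CPM (log2 fold change 0.45, SE 0.06, adjusted p = 1.6e-04). Ppp3ca, a catalytic subunit of calcineurin, fell from 22.8 ± 2.34 to 14.3 ± 2.11 CPM (-0.67, adjusted p = 0.00222), and Itpr1, the calcium channel of the endoplasmic reticulum, from 262.2 ± 14.3 to 180.5 ± 11.4 CPM (-0.54, adjusted p = 8.4e-04). Tec, a kinase downstream of the receptor, fell from 17.8 ± 0.833 to 11.6 ± 0.333 CPM (-0.62, adjusted p = 3.0e-04). Ppp3r1, the regulatory calcineurin subunit (0.26, adjusted p = 0.0388), and Txk, another Tec-family kinase (0.25, adjusted p = 0.0387), passed by little. Their calls were lost in 10 and 12 of the 18 alternatives, with adjusted p up to 0.150 and 0.195, and the Txk groups overlapped. Among these, Ppp3r1 was at 0.23 to 0.28 without homozygous KO replicate 2 or 3 or wild type replicate 2 or 3, and Txk at 0.17 to 0.27 without homozygous KO replicate 2 or 3 or wild type replicate 1, 2 or 4. The count of 13 was 7 without homozygous KO replicate 2 or wild type replicate 2, and 8 without homozygous KO replicate 3 or wild type replicate 3. In the 11 alternatives other than leaving out 1 library it was 6 to 14, lowest with only the wild types that have 1 wt word.

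In the actin and adhesion branch, to which Fyb and Skap1 lead, 9 of 30 genes passed, 5 higher and 4 lower, with a median of 0.02. The 3 Ena/VASP proteins, actin regulators that bind Fyb, did not move together. Enah rose from 1.58 ± 0.386 to 8.54 ± 4.04 CPM (log2 fold change 2.42, SE 0.35, adjusted p = 5.6e-04), beside the fibroblast markers given above, and their part in this value was not tested. Evl fell from 56.5 ± 3 to 37 ± 6.35 CPM (-0.61, SE 0.10, adjusted p = 0.00114) and Vasp from 99.6 ± 9.4 to 79.7 ± 8.19 CPM (-0.32, SE 0.08, adjusted p = 0.0158). Rac1, the GTPase that Vav1 activates, rose from 318.8 ± 17.2 to 396.1 ± 4.99 CPM (0.31, SE 0.06, adjusted p = 0.00402), and Crkl, an adapter of the Rap1 route, from 147.8 ± 10.2 to 176.1 ± 2.54 CPM (0.25, adjusted p = 0.0195). Itgb2, the beta chain of the integrin LFA-1, fell from 215.2 ± 26.8 to 162.4 ± 13.7 CPM (-0.41, SE 0.09, adjusted p = 0.00684). The Vasp call was lost without homozygous KO replicate 3 (-0.25, adjusted p = 0.0731) and with only the wild types that have 1 wt word (-0.34, adjusted p = 0.0665). The Crkl call was lost without homozygous KO replicate 2 (0.25, adjusted p = 0.0575), wild type replicate 1 (0.21, adjusted p = 0.0568) or wild type replicate 2 (0.24, adjusted p = 0.0542). It was also lost with library totals alone (0.16, adjusted p = 0.105) and with only the wild types that have 1 wt word (0.18, adjusted p = 0.183). The count of 9 was 5 when wild type replicate 1 was left out. In the 11 alternatives other than leaving out 1 library it was 4 to 11, lowest with only the wild types that have 1 wt word.

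Among 16 family relatives of the 9 genes, 7 passed, 1 higher and 6 lower, with a median of -0.18. Blnk, the counterpart of Lcp2 in B cells, fell from 3.65 ± 0.745 to 0.64 ± 0.0821 CPM (log2 fold change -2.52, SE 0.21, adjusted p = 1.5e-05), beside the lower B-cell markers given above. The Src-family kinase Yes1 (2.83 to 0.887 CPM, -1.68, adjusted p = 7.7e-04) was also lower, and Grb2, the adapter of which Grap2 is a relative, was higher (161 to 184.1 CPM, 0.19, adjusted p = 0.0468). The call of Grb2 was lost in 13 of 18 alternatives, with adjusted p up to 0.268. Among these, it was at 0.16 to 0.21 without any library of these groups other than homozygous KO replicate 1. The count of 7 was 3 to 7 with a library left out, lowest for wild type replicate 3, and 4 for wild type replicate 1 or 2. In the 11 other alternatives it was 3 to 9, lowest with either wild-type form alone and with the Xist covariate. Skap2, Fyb2 and Grb2 stand in 2 lists each.

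**Figure D4:**
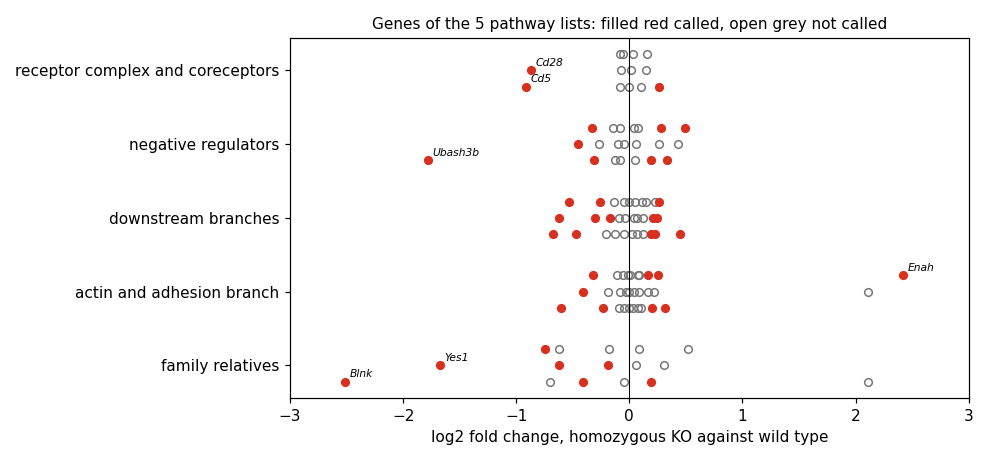
Log2 fold change (horizontal axis) in homozygous KO against wild type of every gene in the 5 pathway lists (rows, points spread vertically for legibility), filled red where the gene passed the test and open grey where it did not, with the names of those that passed and changed by over 0.8. Rises and falls occur in all 5 lists, from Blnk at -2.52 to Enah at 2.42.

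In heterozygous KO against wild type, edgeR's test called 0 genes in each of the 5 lists, beside 0.0154% of all features. At an unadjusted p under 0.05 there were 1 of 13 receptor genes, 4 of 21 negative regulators and 4 of 31 downstream genes. There were also 1 of 30 actin and adhesion genes and 2 of 16 relatives. Over all features tested, 1421 of 19511 lay under that unadjusted p. DESeq2 called 1 gene, Tec, which was lower (log2 fold change -0.37, adjusted p = 0.00936, beside 0.511 with edgeR).

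In homozygous against heterozygous KO, 4 of 13 receptor genes, 5 of 21 negative regulators, 4 of 31 downstream genes, 5 of 30 actin and adhesion genes and 3 of 16 relatives passed, beside 17.1% of all features. The actin and adhesion count of 5 was 2 without homozygous KO replicate 1 or heterozygous KO replicate 3, and 3 without homozygous KO replicate 3, without heterozygous KO replicate 2 or with the Xist covariate. The downstream count of 4 was 9 with library totals alone and 8 with the animal-number block. The count of 3 relatives was 5 with DESeq2 and with the animal-number block.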

How the data were processed

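Per the labels, total RNA of whole thymus was depleted of ribosomal RNA and made into stranded libraries. The authors deposited 1 table of raw read counts per feature, with no normalization. The submitters' processing notes name CASAVA, STAR 2.4.1d, HTSeq 0.6.1p1 and the builds NCBIM37 and mm9. Strand setting, annotation release and the handling of reads shared between features are not given in the sources used here, so overlapping features and gene families are uncertain. In 2 wild-type columns, those of the animals with 1 wt word in the title, the name adds the word het, and the group was taken from the title.

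R 4.3.3 and edgeR 4.0.16 were used: after filterByExpr and TMM, all 10 libraries entered 1 quasi-likelihood fit (glmQLFit, glmQLFTest). A gene passed at a Benjamini-Hochberg adjusted p under 0.05 over the 19511 features tested. SE is the absolute log2 fold change divided by the root of F, and CPM are TMM scaled. The test was run on simulated data first. Alternatives were DESeq2 1.42.0, RLE factors, library totals, scaling to Cd3d, Cd3e and Cd3g, no filter, only the groups compared, replicate and animal-number blocks, an Xist covariate, either wild-type form alone, and leaving out each library. GENCODE for GRCm38 gave exon lengths and the symbols of 30204 of 34467 Ensembl identifiers. Another 908 features carried other names and stayed in the totals and the fit.

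The members and lists were chosen with earlier results of these data known. Besides the 9 members, the text names the up to 3 largest rises and falls per pathway list among genes passing in homozygous KO, the 5 genes most correlated with Fyb, its neighbours, and Usp7. A family relative that this rule names is not reported here. Nothing states that libraries came from separate litters, and p-values measure the spread between these animals. Total counts of 39.8 to 122.4 M per library put 3 counts at 0.0245 to 0.0753 CPM.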

Additional observations from a re-analysis of the deposited data

Results flagged for a closer look

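Of 44 genes examined for a wild-type library far from the other 3, 2 were found, and about 2.2 would be by chance at 1 in 20. Ppp3ca, a catalytic subunit of calcineurin, was at 19.3 CPM in wild type replicate 4 and 23.7 to 24.3 CPM in the other wild types. Enah, an actin regulator, was at 1.01 CPM in wild type replicate 1 and 1.73 to 1.81 CPM in the others.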

How the results depend on the processing

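The number of the 8 tested genes that passed in homozygous KO against wild type was 3, and 2 to 4 with a library left out. It was 1 with only the wild types that have 1 wt word, a fit with fewer samples. In homozygous against heterozygous KO it was 2, staying at 2 with any library left out, against 1 with library totals alone and 4 with scaling to Cd3d, Cd3e and Cd3g. With a replicate block it was 3, 0 and 2 in the 3 comparisons. The replicate numbers only share a number: over 9 same-number pairs, deviations from group means correlated at -0.104 to 0.225, and 2 libraries matched best with their own number. The block moved Fyb to 0.844 in homozygous and 0.538 in heterozygous KO, and Gm2245 to 0.155. The log2 difference of the Lck to Fyn ratio against wild type was 0.121 to 0.157 in homozygous KO with a library left out (exact p = 0.0667 or 0.1, the smallest those designs allow), and -0.04 to 0.012 in heterozygous KO, where it turned to 0.012 without heterozygous KO replicate 1.

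Changes of sign fell on differences that did not pass the test. With library totals alone, Fyn turned to -0.014 and Vav1 to -0.048 in homozygous KO against wild type, and Skap1 turned to -0.027 against heterozygous KO. That scaling moved the median of all features from -0.015 to -0.109 and the share of higher calls from 48.6% to 29% against wild type, and from 44.6% to 26.9% against heterozygous KO (53.3% with Cd3 scaling). In heterozygous KO against wild type, Fyn turned to 0.012 with the Xist covariate, to 0.026 with the wild types that have 2 wt words, and ranged from -0.058 to 0.012 with a library left out (above 0 at 0.004 and 0.012). Lat turned to 0.003 with those wild types and 0.032 without heterozygous KO replicate 1, and Lck to 0.017 without it, with lowest left-out values of -0.103 and -0.067. Between the KO groups, Grap2 turned to 0.003 with RLE factors and DESeq2, 0.058 with Cd3 scaling, and 0.006 and 0.011 with a library left out. In homozygous KO, Gm2245 turned to 0.116 with the wild types that have 1 wt word and to 0.045 and 0.053 within a left-out range of -0.389 to 0.053. The cause was not tested. All-feature calls in heterozygous KO were 3, and 58 with DESeq2.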
